A study of Sus scrofa with 10 samples.

Results

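The genes described here are 39 pig genes whose products copy DNA in S phase or supply the deoxynucleotides for it. They are the MCM2 to MCM7 helicase subunits and MCM10, the loading and firing factors CDC6, CDT1, GMNN, ORC1, ORC6, CDC45 and GINS1 to GINS4, and the clamp PCNA and its loader RFC1 to RFC5. The others are the polymerase and primase subunits POLA1, POLA2, PRIM1, PRIM2, POLD1 and POLE, the Okazaki fragment enzymes FEN1 and LIG1, the nucleotide enzymes RRM1, RRM2, TYMS, TK1 and DUT, and the chromatin factors UHRF1, CHAF1A and CHAF1B. They were taken by name from a table of 27376 genes, and all 39 were found in it. RNA with polyA tails was counted at transcript 3' ends (QuantSeq) in 10 libraries of pig (Sus scrofa) tissue. GF grafts (4 libraries) came from primary germ cells injected together with testicular fibroblasts, and FO grafts (4 libraries) from primary testicular fibroblasts alone. Both were placed in Matrigel in the dorsal skin of a mouse, written SKID in the labels, and were taken 6 months later. Control testis (2 libraries) is pig testis tissue titled 5D. What 5D stands for is not explained in the labels, so age and kind of tissue cannot be told apart in any comparison with it. The control samples carry the same cell type and growth labels as the GF grafts, and their titles were followed here. Counts are on pig genes, and reads from mouse host cells were not looked for.

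Before a cell divides, the origin recognition complex, CDC6 and CDT1 load the ring of MCM2 to MCM7 onto DNA, and geminin (GMNN) blocks CDT1 so that each origin is used once per cycle. CDC45 and the GINS proteins then turn the ring into the moving helicase, the clamp PCNA is loaded by RFC1 to RFC5, and the polymerases alpha, delta and epsilon make the new strands. Many of these genes are switched on by E2F factors at the entry into S phase, and their transcripts are scarce in resting cells. In the testis, spermatogonia copy their DNA before mitosis, and germ cells copy theirs again on entering meiosis, whereas spermatids do not copy theirs.

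Total counts were 2915534 to 4917325 in GF, 4033509 to 4887878 in FO and 5844944 to 7013911 in control testis, and 1 count is worth 0.151 to 0.346 CPM (counts scaled to library size with TMM factors). A count of 0 allows up to 0.453 to 1.04 CPM (3 counts, counting error only). The summed level of 14 germ cell genes was 597 to 3070.4 CPM in GF, 7.42 to 13.2 CPM in FO and 163 to 176 CPM in control testis, and among them ODF1 was at 0 in all FO libraries and PRM1, PRM2 and ODF1 were at 0 in both control libraries. All 14 rose in GF against FO, where genes near 0 in FO were tested because of their level in GF. Against control testis 8 of the 14 rose in GF, where 14.0% of all genes rose, with the same limit. PRM1 had 86.4, 434, 958 and 146 CPM and TNP1 42.7, 279, 680 and 114 CPM in GF 1 to GF 4. SYCP3 had 33.4, 64.6, 81.1 and 41.8 CPM in GF, and 40.2 and 32.9 CPM in control testis. The germ cell sum therefore does not stand for each gene of its list. The summed level of 10 fibroblast genes was 1526 to 2720.0 CPM in GF, 4059.9 to 6027 CPM in FO and 4419 to 4453 CPM in control testis, that of 8 Leydig cell genes 1725 to 3357 CPM in GF, 518 to 3822 CPM in FO and 14244 to 16838 CPM in control testis, and that of 10 macrophage genes 32.5 to 58.5 CPM in GF, 80.3 to 320.2 CPM in FO and 607 to 662 CPM in control testis. INSL3 was the largest part of the Leydig cell sum in each library, with 8207 and 10774 CPM in control testis. HSD17B3 of that list had 183 to 295 CPM in GF, and 151 and 128 CPM in control testis. Of the 10 fibroblast genes, 6 fell and 1, LUM, rose in GF against FO, where 13.0% of all genes fell and 17.6% rose. Of 11 skeletal muscle genes, 10 were in the table, and they summed to 179 CPM in GF 3 and 749 CPM in FO 1, against 4.07 to 27.7 CPM in the other 8 libraries. GF 3 and GF 4 had the lowest totals, and 10 Sertoli cell genes summed to 40628 and 45936 CPM in them, against 15100.3 and 17115 CPM in GF 1 and GF 2. The 10 summed to 4839 to 8810.4 CPM in FO and 4864 to 5426 CPM in control testis. Most of each sum was 1 gene, CLU, with 13699, 15697, 39130 and 43933 CPM in GF 1 to GF 4. CLU had 3894 to 7715 CPM in FO, and 3607 and 4072 CPM in control testis. The sums therefore follow CLU more than the list as a whole. The part of these differences in the results below was not tested, and in bulk tissue fewer cells of a type and less RNA per cell cannot be told apart. Whether the libraries of a group come from separate animals or cultures is not stated in the labels. The spread that the p-values rest on may therefore be technical. Where a gene is given by library, the values of each group are in replicate order.

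Most of the 39 genes were highest in control testis, and FO grafts held the least of most of them. In FO, 38 of the 39 had a lower fitted level than in control testis and 22 fell (adjusted p under 0.05), with a median log2 fold change of -1.64, against -0.04 over all 15877 genes tested. Over all genes, 10.6% fell and 8.12% rose in FO against control testis, and none of the 39 rose. Of the 22, TK1 and POLE were scarce in FO and passed the filter on low counts through other libraries. Their direction is therefore partly fixed by the filter. In GF, 12 of the 39 fell and none rose against control testis, with a median of -1.23, against 0.03 over all genes, of which 11.8% fell and 14.0% rose. Between the grafts, 37 members passed the filter on low counts, and GINS1 and POLE did not. Of the 37, 10 were higher in GF than in FO and 2 were lower, where 17.6% of 13782 genes tested were higher and 13.0% lower. With total counts in place of TMM factors the median of all genes was 0.13 and 69.1% of the genes that passed were higher in GF, against 57.5% with TMM, and of the members 10 were higher and 1 lower. The median of the 37 was 0.39, against -0.02 over all genes. TK1, CDT1, UHRF1, POLD1 and RRM2, all higher in GF, passed the filter through GF. Their counts over the FO libraries were 16, 29, 37, 40 and 47. The number that rose and the median are therefore partly fixed by the filter. Tests were edgeR's quasi-likelihood test with Benjamini-Hochberg adjustment over all genes tested. The 3 comparisons share libraries with each other and are not independent.

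**Figure D1:**
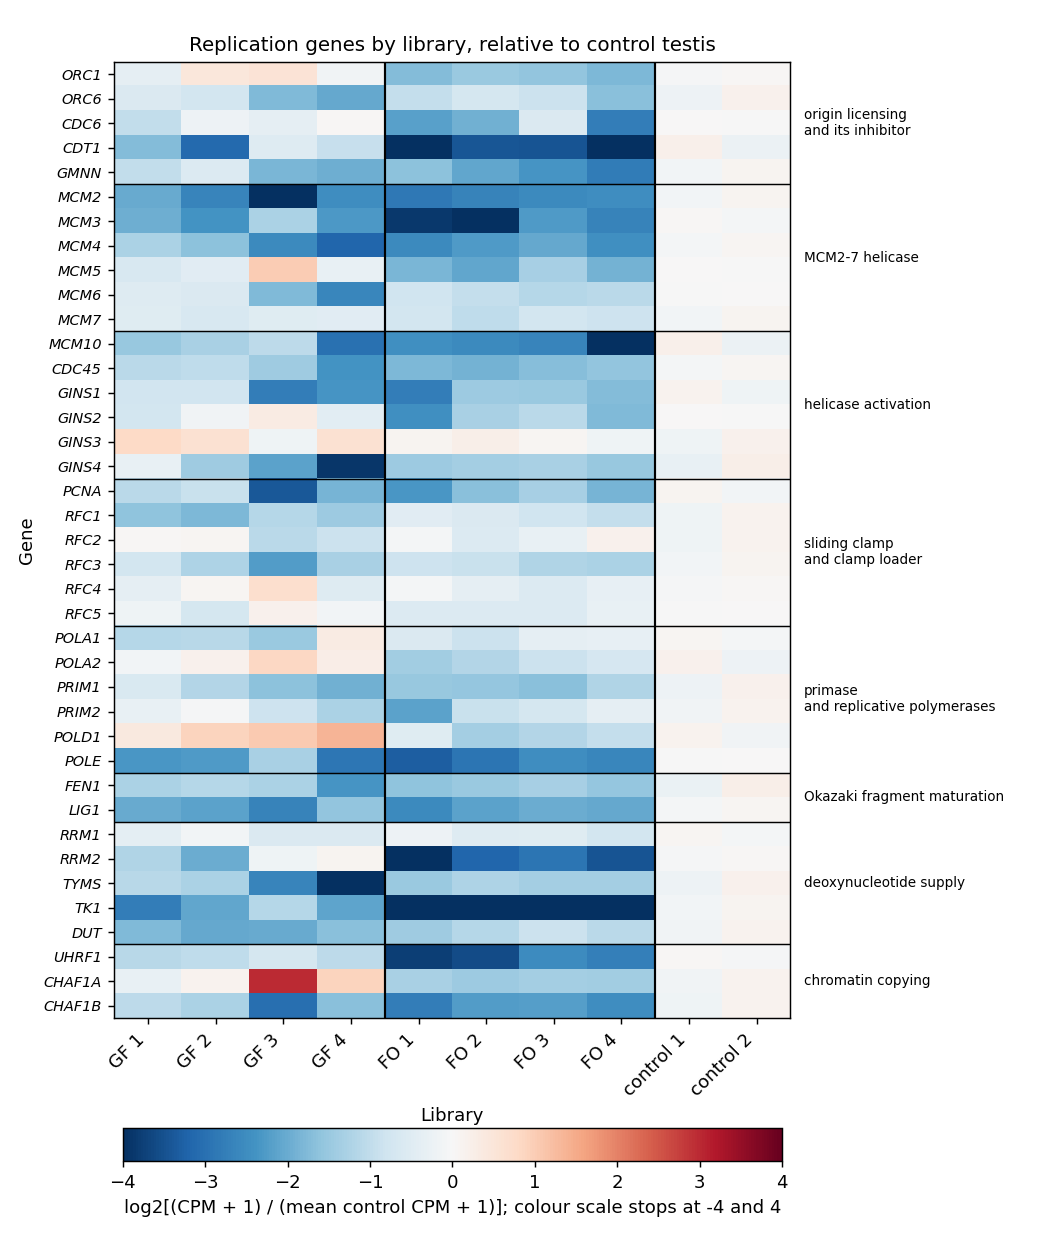
Level of each of the 39 replication genes (rows, by role) in each library (columns), as log2 of its CPM over the mean CPM of control testis, both with 1 CPM added. TK1 is pale to mid blue in GF and darkest in all 4 FO libraries, and CHAF1A is dark red in GF 3.

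By mean level, 23 members stood in the order control testis, GF, FO from high to low, 9 in the order control testis, FO, GF, and 6 (MCM5, ORC1, RFC4, POLA2, POLD1 and CHAF1A) had their highest mean in GF and their lowest in FO. For MCM5 and RFC4 that order rests on GF 3, since the mean of the other GF libraries lay below that of control testis. GINS3 was the 1 member with its lowest mean in control testis. In FO, 37 of the 39 had libraries that did not overlap those of control testis, all 37 lower, where this held for 32.0% of all genes. Of GF against control testis, 25 were lower without overlap, where this held for 25.3% of all genes. POLD1 alone was higher without overlap, where this held for 3476 of 15877 genes tested. GF lay above FO without overlap for 11 of the 37 members, the 10 that rose and MCM7, and below it for 2, where 17.8% of all genes lay above and 18.2% below.

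**Figure D2:**
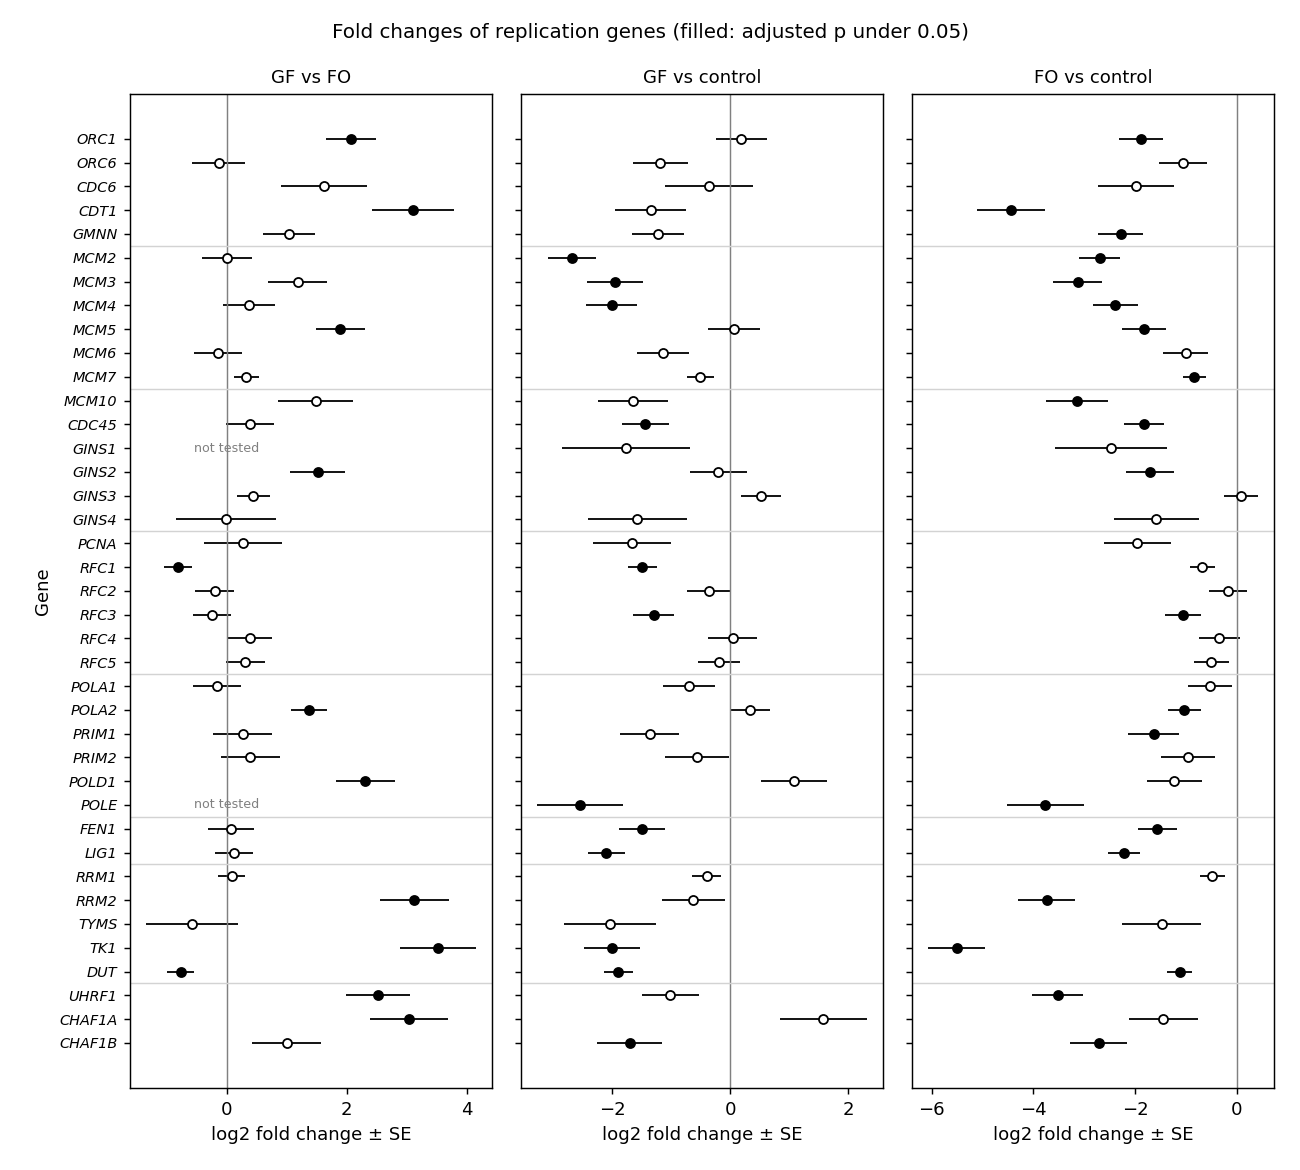
Log2 fold change of each member (rows) in each comparison (panels), with bars of 1 SE and filled circles for an adjusted p under 0.05. The circles of FO versus control lie left of 0 except that of GINS3, whereas those of GF versus FO lie on both sides of it.

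In origin licensing, ORC1 and CDT1 were higher in GF than in FO, and the other members did not pass the test. CDT1, which brings the MCM ring to origins (chromosome 6, 893377 to 897706, Sscrofa11.1), had 10.1, 3.25, 24.9 and 18.3 CPM in the GF grafts, 0.836, 2.39, 2.31 and 0.848 CPM in the FO grafts, and 41.2 and 29.9 CPM in control testis. All GF libraries lay above all FO libraries, GF 2 only a little, and the control libraries lay above every graft. CDT1 rose by 3.11 ± 0.69 (SE, adjusted p = 0.00567) in GF against FO, and was at 39.7% of the control mean in GF and 4.49% in FO. Without GF 3 and GF 4 its log2 fold change in GF against FO was 2.00 (adjusted p = 0.0239), and without FO 1 and GF 3, the libraries with muscle transcripts, it was 2.47 and did not pass (adjusted p = 0.0577, and 4.61e-05 to 0.0577 over all alternatives run). ORC1, the large subunit of the origin recognition complex (chromosome 6, 159819302 to 159852306), had 10.3, 18.6, 20.02 and 12.1 CPM in GF grafts, 3.34, 4.13, 3.78 and 3.18 CPM in FO grafts, and 13.0 and 13.7 CPM in control testis. Its GF libraries overlapped those of control testis and lay above all FO libraries, and it rose by 2.07 ± 0.41 (SE, adjusted p = 0.00327) in GF against FO. CDC6, which joins the origin complex before the MCM ring, averaged 6.70 ± 2.15 CPM in GF, 2.13 ± 2.26 CPM in FO and 8.60 ± 0.196 CPM in control testis (SD, n = 4, 4 and 2). Its log2 fold change in GF against FO was 1.63 ± 0.72 (SE, adjusted p = 0.105), and without FO 3, the highest FO library, it was 2.70 and passed (adjusted p = 0.0256, and 0.0256 to 0.281 over all alternatives). Geminin, GMNN, averaged 18.7 ± 9.21 CPM in GF grafts, against 9.11 ± 3.34 CPM in FO grafts (SD, n = 4), a log2 difference of 1.04 ± 0.43 (SE, adjusted p = 0.0873) that passed without GF 4 (adjusted p = 0.0395, and 0.00273 to 0.256 over all alternatives). ORC6, a small subunit of the origin complex, stood at -0.13 (adjusted p = 0.841) in the same comparison.

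Of the 6 subunits of the replicative helicase ring, MCM5 alone passed the test between GF and FO, and 5 of the 6 fell in FO against control testis. MCM5 (on an unplaced sequence of Sscrofa11.1) had 27.2, 31.2, 87.7 and 34.6 CPM in GF grafts, 11.4, 9.57, 16.8 and 10.8 CPM in FO grafts, and 44.0 and 42.3 CPM in control testis. GF 3 stood far above the other libraries, and the other 3 GF libraries lay below control testis and above FO. MCM5 rose by 1.90 ± 0.41 (SE, adjusted p = 0.00519) in GF against FO, and by 1.25 (adjusted p = 0.00360) without GF 3 and GF 4, with an adjusted p of 1.15e-04 to 0.0301 over all alternatives. MCM2 (chromosome 13, 72630378 to 72651270) had 23.6, 15.2, 5.18 and 16.9 CPM in the GF grafts, 12.8, 14.8, 16.2 and 17.0 CPM in the FO grafts, and 91.2 and 106 CPM in control testis. The graft libraries overlapped, and both control libraries lay above them all. MCM2 fell by 2.68 on the log2 scale in GF against control testis (adjusted p = 5.22e-04) and by 2.70 in FO against control testis (adjusted p = 5.36e-04), and its log2 difference between GF and FO was 0.01 ± 0.41 (SE, adjusted p = 0.990). MCM3 had 21.2, 15.7, 35.2 and 16.6 CPM in GF grafts, 5.02, 4.13, 17.0 and 12.7 CPM in FO grafts, and 89.7 and 82.0 CPM in control testis. FO 3 and FO 4 lay near the lower GF libraries and FO 1 and FO 2 well below them, and the difference of 1.18 ± 0.49 (SE, adjusted p = 0.0851) between GF and FO did not pass, although without FO 3 it did (adjusted p = 0.0452, and 0.0293 to 0.406 over all alternatives). MCM7 had 72.7, 64.8, 72.8 and 74.3 CPM in the GF grafts, 61.0, 49.6, 59.99 and 56.6 CPM in the FO grafts, and 94.1 and 108 CPM in control testis, with GF between FO and control testis without overlap. For the remaining subunits the log2 differences between GF and FO were 0.37 ± 0.43 for MCM4, -0.14 ± 0.40 for MCM6 and 0.33 ± 0.20 for MCM7 (SE, adjusted p = 0.549, 0.815 and 0.244). MCM7 was the steadiest of the 6 in GF, where its highest library was 1.15 times its lowest, against 4.59 times for MCM6 and 4.55 times for MCM2. The count of MCM5 per count of MCM2 was 1.15, 2.06, 16.9 and 2.04 in GF 1 to GF 4, 0.891, 0.647, 1.04 and 0.637 in FO 1 to FO 4, and 0.483 and 0.398 in the control libraries, so that all GF libraries lay above all others and GF 3 farthest.

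Among the factors that activate the helicase, GINS2 was higher in GF than in FO, and MCM10, CDC45, GINS3 and GINS4 did not pass. GINS2, a subunit of the tetramer that binds the MCM ring, had 10.5, 16.4, 23.1 and 13.1 CPM in the GF grafts, 2.51, 6.74, 7.97 and 4.66 CPM in the FO grafts, and 18.1 and 18.1 CPM in control testis. The GF libraries overlapped those of control testis and lay above those of FO. It rose by 1.52 ± 0.46 (SE, adjusted p = 0.0257) in GF against FO, and the call ended without FO 1, FO 4 or GF 3 (adjusted p = 0.0702, 0.0669 and 0.0593), and without FO 1 and GF 3 together (adjusted p = 0.127). Over all alternatives its adjusted p was 0.00403 to 0.127. MCM10, which helps to activate the helicase, had 9.43, 11.2, 13.5 and 2.77 CPM in GF grafts, 4.46, 4.13, 3.78 and 0.848 CPM in FO grafts, and 33.5 and 24.6 CPM in control testis. GF 4 lay within the range of FO and the other GF libraries above it. The difference of 1.48 ± 0.62 (SE, adjusted p = 0.0894) did not pass, and without GF 4 it did (adjusted p = 0.0253, and 0.0213 to 0.226 over all alternatives). GINS1 was too low for the test between grafts, with 3.00, 3.07, 0 and 0.346 CPM in the GF grafts, 0, 1.52, 1.47 and 1.06 CPM in the FO grafts, and 6.60 and 5.14 CPM in control testis, and its graft libraries overlapped below those of control testis. CDC45 averaged 12.8 ± 5.04 CPM in GF, 9.87 ± 1.07 CPM in FO and 35.2 ± 2.51 CPM in control testis, and GINS3 32.1 ± 8.62 CPM in GF, 23.6 ± 2.77 CPM in FO and 22.4 ± 3.97 CPM in control testis (SD, n = 4, 4 and 2). GINS3 was the 1 member of the 39 whose fitted level in FO was not below that of control testis (0.07 ± 0.33, SE). GINS4 had no counts in GF 4 and 52 in GF 1, and its log2 difference between GF and FO was -0.01 ± 0.83 (SE, adjusted p = 0.996).

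For the sliding clamp and its loader, no member was higher in GF than in FO, and RFC1 was lower. RFC1, the large subunit of the clamp loader, had 64.7, 56.9, 89.1 and 72.6 CPM in the GF grafts, 146, 134, 115 and 103 CPM in the FO grafts, and 178 and 220.3 CPM in control testis. GF lay below FO and FO below control testis without overlap, the order in which 8 further members stood by mean. It fell by 0.81 on the log2 scale in GF against FO (adjusted p = 0.0192), and the call ended without FO 1 or FO 2 (adjusted p = 0.0705 and 0.0610, in a range of 0.00115 to 0.0705 over all alternatives). RFC4, a small subunit of the loader, had 11.6, 15.9, 24.5 and 10.4 CPM in GF grafts, 14.2, 11.5, 10.1 and 11.9 CPM in FO grafts, and 14.7 and 15.6 CPM in control testis. GF overlapped FO and control testis, and both control libraries lay just above FO. Its log2 difference between GF and FO was 0.39 ± 0.37 (SE, adjusted p = 0.450). The differences of RFC2, RFC3 and RFC5 between GF and FO were -0.20 ± 0.32, -0.24 ± 0.32 and 0.31 ± 0.32 (SE, adjusted p = 0.670, 0.591 and 0.496). PCNA, the clamp itself and a common marker of dividing cells, had 7.29, 8.49, 0.690 and 3.80 CPM in the GF grafts, 2.51, 4.57, 6.08 and 3.81 CPM in the FO grafts, and 17.97 and 15.3 CPM in control testis. GF and FO overlapped below both control libraries, and the log2 difference between GF and FO was 0.27 ± 0.65 (SE, adjusted p = 0.778). GF 3 held 2 counts of PCNA, so its value there rests on almost no reads.

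Among polymerase and primase subunits, POLD1 and POLA2 were higher in GF than in FO. POLD1, the catalytic subunit of polymerase delta (chromosome 6, 55247799 to 55272087), had 7.501, 11.01, 12.4 and 15.6 CPM in GF grafts, 3.62, 1.52, 1.89 and 2.33 CPM in FO grafts, and 6.10 and 4.84 CPM in control testis. Every GF library lay above every control library, and every control library above every FO library. POLD1 rose by 2.31 ± 0.49 (SE, adjusted p = 0.00456) in GF against FO, while the differences from control testis of 1.079 ± 0.55 in GF and -1.23 ± 0.54 in FO did not pass (SE, adjusted p = 0.166 and 0.132). POLA2, the regulatory subunit of polymerase alpha, had 35.4, 42.8, 67.3 and 46.0 CPM in the GF grafts, 13.7, 16.3, 20.3 and 23.5 CPM in the FO grafts, and 43.2 and 32.5 CPM in control testis. GF again lay above FO without overlap and overlapped control testis, and POLA2 rose by 1.37 ± 0.30 (SE, adjusted p = 0.00513) in GF against FO. Its catalytic partner POLA1 averaged 25.0 ± 17.1 CPM in GF, 27.9 ± 4.74 CPM in FO and 40.4 ± 3.05 CPM in control testis (SD, n = 4, 4 and 2), with a log2 difference of -0.16 ± 0.40 (SE, adjusted p = 0.785) between GF and FO, and GF 4 held 50.5 CPM against 13.8 to 18.1 CPM in the other GF libraries. The primase subunits PRIM1 and PRIM2 differed by 0.26 ± 0.49 and 0.39 ± 0.49 between GF and FO (SE, adjusted p = 0.711 and 0.576). POLE, the catalytic subunit of polymerase epsilon, was too low for the test between grafts, with 1.50, 1.62, 4.14 and 0.691 CPM in GF grafts, 0.279, 0.653, 1.26 and 1.06 CPM in FO grafts, and 11.5 and 11.6 CPM in control testis. Both control libraries lay well above all 8 grafts.

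The enzymes that finish Okazaki fragments did not pass the test between the grafts, and both fell in GF and in FO against control testis. FEN1, the flap nuclease, had 13.1, 14.3, 13.1 and 5.53 CPM in the GF grafts, 10.03, 11.09, 12.4 and 10.6 CPM in the FO grafts, and 26.7 and 38.5 CPM in control testis. LIG1, the ligase that seals the fragments, had 21.4, 19.3, 13.1 and 29.4 CPM in GF grafts, 14.5, 19.4, 21.8 and 20.8 CPM in FO grafts, and 85.1 and 93.7 CPM in control testis. For both genes the GF and FO libraries overlapped, and the control libraries lay above all grafts. The log2 differences between GF and FO were 0.07 ± 0.39 (SE, adjusted p = 0.910) for FEN1 and 0.12 ± 0.32 (SE, adjusted p = 0.796) for LIG1. LIG1 fell in GF (-2.10, adjusted p = 5.20e-04) and in FO (-2.22, adjusted p = 3.75e-04) against control testis.

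Deoxynucleotide supply held the 2 largest differences of all members between GF and FO, those of TK1 and RRM2, and also DUT, which was lower in GF. TK1, the thymidine kinase of S phase (chromosome 12, 3785997 to 3794824), had 5.36, 9.21, 18.3 and 8.99 CPM in the GF grafts, 0.279, 0.870, 1.26 and 1.06 CPM in the FO grafts, and 38.6 and 45.03 CPM in control testis. The 3 groups did not overlap, with control testis highest and FO at 16 counts over its 4 libraries. TK1 rose by 3.52 ± 0.63 (SE, adjusted p = 0.00187) in GF against FO, and fell by 5.51 in FO against control testis (adjusted p = 3.62e-05), the largest fitted difference of any member in either comparison. Without FO 1 and GF 3, the libraries with muscle transcripts, the rise in GF against FO was 2.84 (adjusted p = 0.0166, and 1.00e-06 to 0.0166 over all alternatives). RRM2, the subunit of ribonucleotide reductase made in S phase (chromosome 3, 126357198 to 126367145), had 14.8, 8.12, 30.7 and 38.0 CPM in GF grafts, 1.11, 3.05, 3.78 and 2.33 CPM in FO grafts, and 33.8 and 36.4 CPM in control testis. GF 3 and GF 4 were at about the control level, GF 1 and GF 2 below it, and all FO libraries lowest. It rose by 3.13 ± 0.57 (SE, adjusted p = 0.00208) in GF against FO, and by 2.10 (adjusted p = 0.00379) without GF 3 and GF 4, with an adjusted p of 7.23e-07 to 0.0237 over all alternatives. RRM1, the other subunit of the same enzyme, did not pass, with 76.7 ± 12.6 CPM in GF, 72.6 ± 11.3 CPM in FO and 101 ± 8.27 CPM in control testis (SD, n = 4, 4 and 2) and a log2 difference of 0.08 ± 0.22 (SE, adjusted p = 0.803) between GF and FO. The count of RRM2 per count of RRM1 was 0.191, 0.0862, 0.459 and 0.558 in GF 1 to GF 4, 0.0127, 0.0431, 0.0523 and 0.0387 in FO 1 to FO 4, and 0.315 and 0.381 in the control libraries, so that every GF library lay above every FO library.

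**Figure D3:**
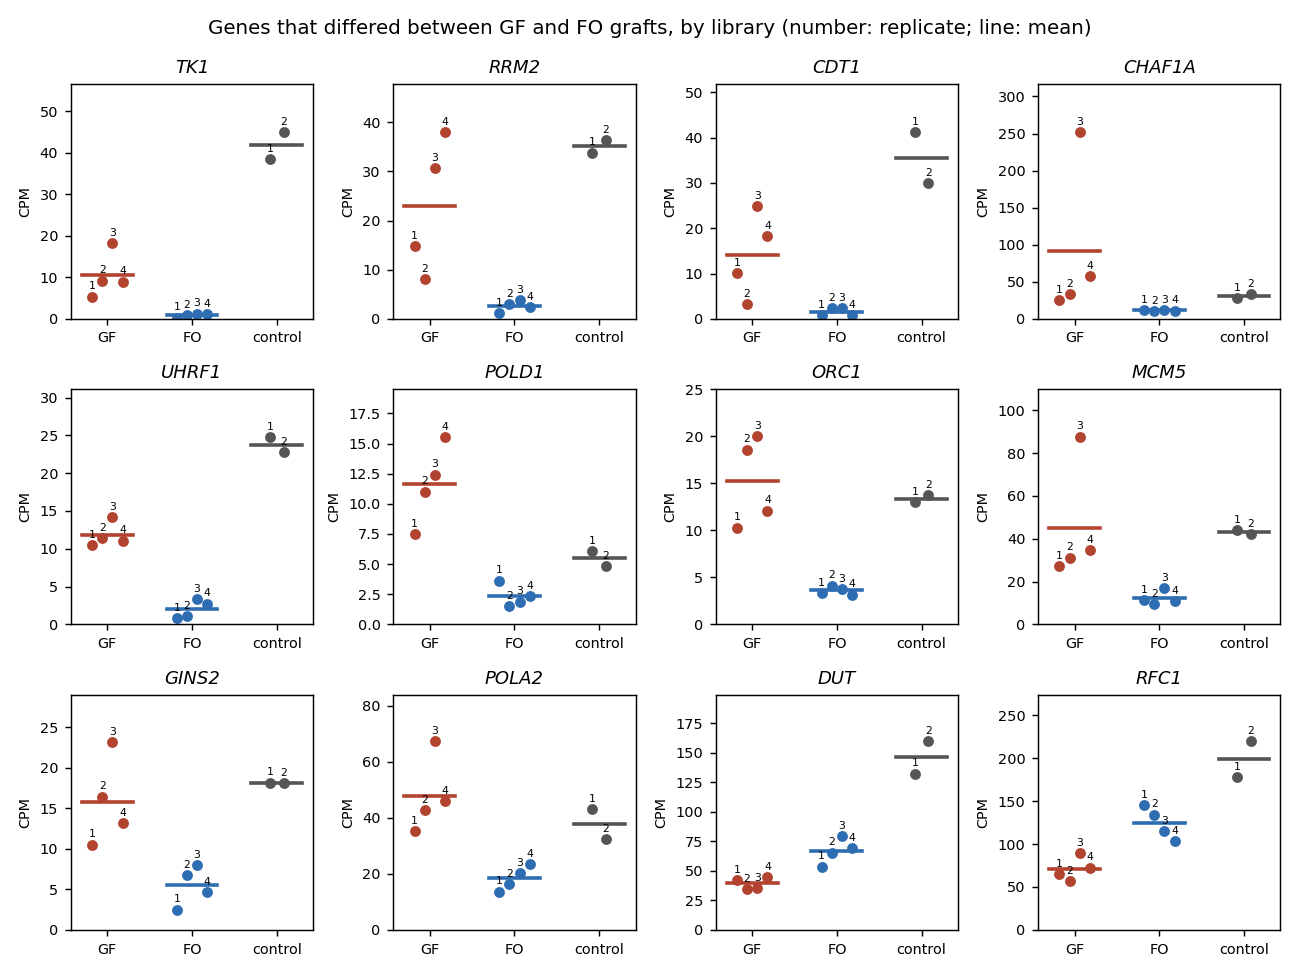
CPM of the 12 members that passed the test between GF and FO in each library, with the replicate number over each point and a line at the group mean, ordered by log2 fold change. For TK1 to POLA2 all GF points lie above all FO points, and for DUT and RFC1 all lie below.

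DUT, which removes dUTP so that uracil is kept out of DNA, had 42.2, 34.3, 35.6 and 44.9 CPM in the GF grafts, 53.5, 65.5, 79.7 and 69.3 CPM in the FO grafts, and 132 and 159.7 CPM in control testis. GF lay below FO and FO below control testis without overlap. It fell by 0.77 on the log2 scale in GF against FO (adjusted p = 0.0245), and the call ended without GF 2, FO 2, FO 3 or FO 4 (adjusted p = 0.0556, 0.0619, 0.0890 and 0.0657) and with total counts as scaling (adjusted p = 0.0664). The range of its adjusted p over all alternatives was 0.00423 to 0.0890. TYMS, thymidylate synthase, averaged 4.26 ± 3.84 CPM in GF, 6.53 ± 0.541 CPM in FO and 18.3 ± 3.67 CPM in control testis (SD, n = 4, 4 and 2), with no counts in GF 4. Its log2 difference between GF and FO was -0.57 ± 0.76 (SE, adjusted p = 0.597); TYMS makes anew the nucleotide that TK1 makes by salvage.

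Of the chromatin factors, UHRF1 and CHAF1A were higher in GF than in FO. UHRF1, which brings DNA methylation to newly copied strands (chromosome 2, 73898061 to 73937727), had 10.5, 11.4, 14.2 and 11.06 CPM in GF grafts, 0.836, 1.09, 3.36 and 2.75 CPM in FO grafts, and 24.7 and 22.8 CPM in control testis. The 3 groups did not overlap, and the GF libraries lay close together, the highest at 1.35 times the lowest. UHRF1 rose by 2.52 ± 0.53 (SE, adjusted p = 0.00456) in GF against FO, and stood at 49.5% of the control mean in GF and 8.45% in FO. CHAF1A, the large subunit of chromatin assembly factor 1, which sets histones on new DNA (chromosome 2, 74380706 to 74411875), had 24.9, 33.8, 252 and 57.4 CPM in the GF grafts, 11.99, 10.7, 11.3 and 11.2 CPM in the FO grafts, and 27.7 and 33.8 CPM in control testis. The FO libraries were nearly equal, and GF 3 held more than all others by a wide margin. It rose by 3.03 ± 0.65 (SE, adjusted p = 0.00500) in GF against FO, and by 1.76 (adjusted p = 0.00353) without GF 3 and 1.37 (adjusted p = 0.00113) without GF 3 and GF 4. Without FO 1 and GF 3 the rise was 1.79, and its adjusted p was 8.14e-06 to 0.0219 over all alternatives. CHAF1B, its partner in the same complex, had 9.64, 8.12, 1.73 and 5.88 CPM in GF grafts, 2.23, 3.70, 3.78 and 2.97 CPM in FO grafts, and 18.6 and 23.4 CPM in control testis. GF 3 was the lowest GF library for CHAF1B, below all FO libraries, and both control libraries lay above all grafts. The log2 difference between GF and FO was 1.00 ± 0.57 (SE, adjusted p = 0.204). The count of CHAF1A per count of CHAF1B was 2.58, 4.16, 146 and 9.76 in GF 1 to GF 4, 5.38, 2.88, 3.00 and 3.79 in FO 1 to FO 4, and 1.49 and 1.45 in the control libraries.

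The GF libraries did not carry the members in 1 common pattern. Of 8 ratios of counts between members that were computed, 5 separated the GF from the FO libraries. These were MCM5 to MCM2, RRM2 to RRM1, POLA2 to POLA1 and TK1 to TYMS, higher in GF, and RFC1 to RFC4, lower in GF. In each ratio except MCM6 to MCM2, the first gene passed the test between GF and FO and the second did not. A separation of the grafts therefore largely restates those calls. The ratios of MCM6 to MCM2, CDT1 to GMNN and CHAF1A to CHAF1B overlapped between the grafts, with CDT1 to GMNN at 0.456, 0.108, 2.12 and 1.71 in GF 1 to GF 4, 0.0625, 0.244, 0.297 and 0.154 in FO 1 to FO 4, and 1.02 and 0.623 in the control libraries. The ratio of TK1 to TYMS has no value in GF 4, which had no TYMS count. For 15 members GF 3 and GF 4 both lay below GF 1 and GF 2 (among them MCM4, MCM6, GMNN, CDC45, PCNA, RRM1, TYMS and CHAF1B), and for 9 both lay above (MCM5, MCM7, CDT1, RFC1, RFC5, POLA2, POLD1, RRM2 and CHAF1A). The share of all genes in either order was not counted. Over all genes, counts differed less within these pairs (chi-square per degree of freedom 11.8 and 22.7) than between them (50.6 to 58.9). The split therefore cannot be called particular to the members. Within GF, the highest library was less than 2 times the lowest for 8 of the 39 members, against 24 in FO and all 39 in the 2 control libraries. A range over 2 libraries tends to be narrower than one over 4, and the control libraries also had more counts. The shares over all genes were not counted. Summed over the 39, the level was 878, 861, 1103 and 819 CPM in GF 1 to GF 4, 716, 691, 737 and 679 CPM in FO 1 to FO 4, and 1681 and 1830.4 CPM in the control libraries. Without GF 3 and GF 4, 17 members passed between GF and FO, 15 higher and 2 lower, and these held all 12 of the full set. In that setting more genes passed overall as well, 5305 of 14714 tested (2827 higher and 2478 lower), against 4205 of 13782 with all libraries.

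**Figure D4:**
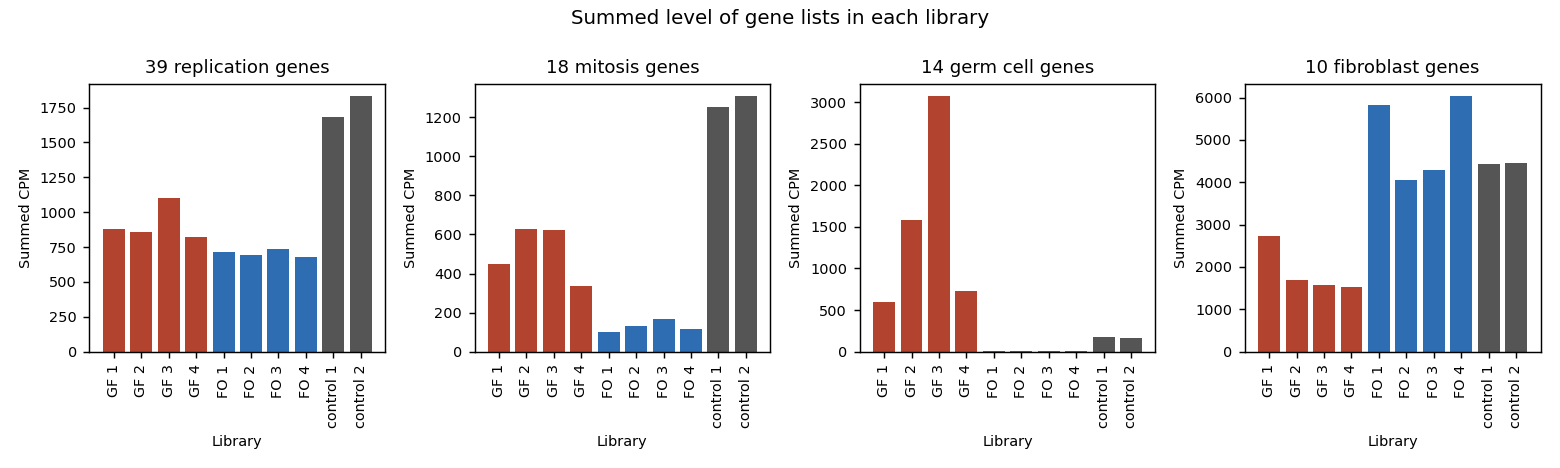
Summed CPM of 39 replication genes, 18 mitosis genes, 14 germ cell genes and 10 fibroblast genes in each library. The GF libraries lie above the FO libraries in the first 3 panels and below them in the last, and control testis is highest in the first 2.

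Against control testis, the members that fell in FO came from every role. They were CDT1, GMNN and ORC1 of licensing, MCM2, MCM3, MCM4, MCM5 and MCM7 of the ring, MCM10, CDC45 and GINS2 of its activation, RFC3 of the clamp loader, POLA2, PRIM1 and POLE, FEN1 and LIG1, RRM2, TK1 and DUT, and UHRF1 and CHAF1B. The smallest fall was that of MCM7 (-0.83) and the largest after TK1 were those of CDT1 (-4.44), POLE (-3.76), RRM2 (-3.74) and UHRF1 (-3.53). TK1 and POLE had 16 and 15 counts over the FO libraries and passed the filter on low counts through other libraries. The calls of MCM2, MCM3, MCM4, MCM10, CDT1, LIG1, RRM2, TK1 and UHRF1 held in every alternative that was run. Without control 1, 13 members passed, and the calls of CDC45, FEN1, GINS2, MCM5, MCM7, ORC1, POLA2, PRIM1 and RFC3 ended (adjusted p between 0.0545 and 0.326). Without control 2, 9 passed, and those of CHAF1B, DUT, GMNN and POLE ended as well (adjusted p between 0.0514 for POLE and 0.313 for RFC3 over the 13). Calls over all genes fell too, to 977 of 16854 tested without control 1 and 796 of 16887 without control 2, against 2972 of 15877 with both. The calls of GINS2, MCM7, POLA2, PRIM1 and RFC3 also ended without 1 graft library, GINS2 without FO 1 or FO 4, MCM7 without FO 2, POLA2 without FO 1, FO 2, FO 3 or GF 2, PRIM1 without any 1 FO library and RFC3 without any 1 FO library or GF 2 (adjusted p up to 0.0572, 0.0594, 0.107, 0.0865 and 0.112). Members that passed once 1 library was left out were CDC6 without FO 3 (-3.05, adjusted p = 0.0149), CHAF1A and RFC1 without GF 3, GINS4, MCM6 and TYMS without GF 4, and PCNA without GF 3 or GF 4, all lower in FO (adjusted p between 0.00791 and 0.0419).

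In GF, the members that fell against control testis were MCM2, MCM3 and MCM4 of the ring, CDC45, RFC1 and RFC3, POLE, FEN1 and LIG1, TK1 and DUT, and CHAF1B, with log2 fold changes between -2.68 for MCM2 and -1.30 for RFC3. No licensing factor was among them with all libraries in the fit. POLE, with 30 counts over the GF libraries, passed the filter on low counts through control testis. All GF libraries of CDT1, GMNN and ORC6 lay below both control libraries, at log2 differences of -1.35 ± 0.61, -1.23 ± 0.44 and -1.18 ± 0.47 that did not pass (SE, adjusted p = 0.118, 0.0545 and 0.0795). Without GF 3 and GF 4 the difference of CDT1 was -2.45 and passed (adjusted p = 0.00113), so that its place among the genes that did not pass rests on those libraries; its adjusted p was 0.00113 to 0.434 over all alternatives. RFC1 and DUT fell by 1.49 and 1.90 (adjusted p = 9.60e-04 and 1.80e-04), and with MCM2 and LIG1 these were the 4 calls that held in every alternative that was run. Without control 1, 5 members passed, and the calls of CDC45, CHAF1B, FEN1, MCM3, POLE, RFC3 and TK1 ended (adjusted p between 0.0544 and 0.139). Without control 2, 4 passed, and that of MCM4 ended as well (adjusted p between 0.0624 for MCM4 and 0.255 for CHAF1B over the 8). Over all genes 1395 of 16854 tested passed without control 1 and 1141 of 16887 without control 2, against 4091 of 15877 with both. CHAF1B also lost its call without FO 2 or FO 3 (adjusted p = 0.0513 and 0.0523). Members that passed once 1 library was left out were CHAF1A, which was higher in GF at 1.88 without GF 1 (adjusted p = 0.0448), and, all lower in GF, GINS4, ORC6 and PRIM1 without GF 1, MCM6 without GF 1 or GF 2, GMNN and PCNA without GF 2, CDT1 without GF 3, MCM10 without GF 3 or FO 4, POLA1 without GF 4 and TYMS without GF 1 or GF 4 (adjusted p between 0.00608 for POLA1 and 0.0494 for PCNA). Without GF 3 and GF 4 together, 20 members passed, 19 lower and 1 higher, the last being GINS3 (0.71, adjusted p = 0.0391). Over all genes 5677 of 15305 tested passed in that setting (2872 higher and 2805 lower), against 4091 of 15877 with all libraries.

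Further genes of the same pathway are set beside the shares of all genes. In GF against FO, 17.6% of all genes tested rose and 13.0% fell. Against control testis, 14.0% rose and 11.8% fell in GF, and 8.12% rose and 10.6% fell in FO. Of 37 other replication proteins, 36 were in the table and 33 were tested between GF and FO. Of these, 6 rose (18.2%), 4 fell (12.1%) and 23 did not pass, near the shares of all genes, with a median of -0.08. TOP2A, the topoisomerase that untangles copied chromosomes, averaged 166 ± 73.4 CPM in GF grafts, against 20.5 ± 9.41 CPM in FO grafts (SD, n = 4) and rose by 3.02 ± 0.41 (SE, adjusted p = 4.96e-04). CHTF18, of an alternative clamp loader, rose by 4.17 (adjusted p = 0.00126) and POLD3, an accessory subunit of polymerase delta, by 2.21 (adjusted p = 0.00211). In FO against control testis, 12 of the 36 tested genes of this list fell and 1, the polymerase epsilon subunit POLE3, rose (1.27, adjusted p = 0.00515). In GF against control testis 7 of 36 fell, among them the topoisomerase TOP1 (-1.59, adjusted p = 6.25e-04) and the PCNA-binding factor PCLAF (-2.02, adjusted p = 0.00527), and none rose. Of 23 other nucleotide enzymes, all tested, 3 rose (13.0%) and 2 fell (8.70%) in GF against FO. DCTD, which makes dUMP for TYMS, fell by 1.99 (adjusted p = 6.70e-04), and SAMHD1, which breaks deoxynucleotides down, by 0.78 (adjusted p = 0.0213), while DTYMK, the kinase that follows TK1, rose by 1.38 (adjusted p = 0.0294). Against control testis, 5 fell and 2 rose in GF, and 5 fell and 1 rose in FO, where SAMHD1 was the gene that rose (1.28, adjusted p = 0.00637). Of 10 genes of histone supply and chromatin copying, 8 were tested and 1 rose, the histone chaperone NASP (0.83, adjusted p = 0.0216). In FO against control testis 4 of the 10 fell, including NASP (-1.67), the chaperone ASF1B (-4.12) and the maintenance methyltransferase DNMT1 (-1.41).

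The genes that govern the step from G1 to S are given in the same way. Of 33 such genes 26 were tested between GF and FO. Of these, 4 rose (15.4%) and 5 fell (19.2%), where 17.6% of all genes rose and 13.0% fell. MYBL2, a target of E2F in cycling cells, averaged 38.5 ± 12.9 CPM in GF grafts, against 4.51 ± 1.49 CPM in FO grafts (SD, n = 4) and rose by 3.08 ± 0.39 (SE, adjusted p = 3.11e-04). CDKN2D, an inhibitor of CDK4 and CDK6, rose (1.95, adjusted p = 0.00108), whereas CDK6 itself fell (-1.32, adjusted p = 0.00238). CDKN1B, the p27 inhibitor of cyclin E complexes, fell in GF against FO (-1.33, adjusted p = 0.00318), with 40.3 ± 13.6 CPM in GF grafts, against 101 ± 11.8 CPM in FO grafts (SD, n = 4). In FO against control testis 8 of 30 tested genes of the list fell (26.7%) and 2 rose (6.67%), where 10.6% of all genes fell and 8.12% rose. The falls included those of MYBL2 (-2.87), CCNE2 (-2.58) and E2F1 (-3.12), and the rises were CDKN1B (adjusted p = 0.00595) and CDKN1A (1.58).

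Mitosis genes are given beside these, and whether either list follows the number of dividing cells was not tested. Of 18, 15 were tested between GF and FO and 13 rose, TPX2, CENPF and PLK1 with the lowest p, where 17.6% of all genes rose. Their median was 2.72, against 0.39 for the replication genes, and the difference between the lists was not tested. Genes scarce in FO, such as PLK1 (0.836 to 2.73 CPM) and KIF11 (0.279 to 2.10 CPM), passed the filter on low counts through GF. The number that rose and the median are therefore partly fixed by the filter. The same holds for replication genes scarce in FO, such as TK1. MKI67, a marker of cycling cells, had 14.4, 17.3, 25.2 and 6.91 CPM in the GF grafts, 0.836, 0.870, 3.78 and 4.03 CPM in the FO grafts, and 55.7 and 56.4 CPM in control testis. GF 1, GF 2 and GF 3 were well above all FO libraries and below control testis, and MKI67 rose by 2.72 ± 0.62 (SE, adjusted p = 0.00665) in GF against FO. In FO against control testis 17 of the 18 fell and in GF against control testis 7 fell, and none rose in either. Over all genes, 10.6% and 11.8% fell in these comparisons. Of 17 genes of meiotic entry and prophase, 10 were tested between grafts, under the same filter. Of these 7 rose, among them SYCP3 (6.10, adjusted p = 1.18e-04) of the chromosome axis. DDX4, an RNA helicase of germ cells, stood at 66.1 ± 24.6 CPM in GF grafts, against 1.15 ± 0.777 CPM in FO grafts (SD, n = 4), a log2 rise of 5.78 ± 0.48 (SE, adjusted p = 5.53e-05). The summed level of the 18 mitosis genes was 336 to 626 CPM in GF, 103 to 166 CPM in FO and 1251 to 1307 CPM in control testis.

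Of the 39 members, 11 overlap another annotated gene on Sscrofa11.1 (MCM4, MCM7, ORC1, GINS2, RFC1, RFC3, RFC4, RFC5, POLE, DUT and UHRF1), and since the use of strand is not given in the sources used here, their counts may hold reads of that neighbour. RFC4 overlaps EIF4A2, which had 16092 counts over the 10 libraries, and RFC5 overlaps WSB2, which had 5645. MCM5, on an unplaced sequence, was not checked for overlap.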

How the data were processed

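Polyadenylated RNA was extracted with Trizol and libraries were made with a QuantSeq 3' kit, per the labels' protocols. The authors deposited 1 table of counts per pig gene, which are whole numbers that have not been normalized. Build Sscrofa11.1 and DESeq2 1.42.0 appear in the submitters' processing notes. The aligner, the counter and whether strand was used are not given in the labels or file headers. The table has 27376 rows, of which 26 hold a date in place of a gene name. Columns were matched to samples by name, and those named F were taken as FO. The 39 members were matched by symbol and given positions from a RefSeq table of Sscrofa11.1. Promoter motifs were not analysed here.

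Counts were fitted with edgeR 4.0.16 (TMM factors, filterByExpr with a minimum count of 10, robust quasi-likelihood test, Benjamini-Hochberg adjustment over all genes tested, threshold 0.05) in R 4.3.3. GF against FO was fitted on the 8 grafts, and both comparisons with control testis in 1 fit of the 10 libraries. The SE of a log2 fold change was taken from its size and F statistic. The fit was tested on simulated counts. Counts of libraries of a group differed by more than sampling noise, so no pair was treated as a repeat deposit of 1 library; repeat preparations of 1 sample could differ as much. Alternatives were DESeq2 1.42.0, other scalings, no filter, a replicate block, other sets of libraries in the fit and leaving libraries out. Members and gene lists were chosen with earlier results of these data known. Values per library are given for the 2 members of each role with the lowest p between GF and FO (all 3 of chromatin copying), for members that fell there, for those with the largest fall against control testis and for members not tested. From other lists up to 3 genes with the lowest p in a comparison are named, with MKI67 and DDX4. The values of PCNA and MCM7 by library, and CDKN1B, were added after their values were seen.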

Additional observations from a re-analysis of the deposited data

Results flagged for a closer look

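In 5 of 78 groups of 4 graft libraries (the 39 members in GF and in FO), 1 library stood apart by Dixon's test, which chance alone would give in about 1 of 20 groups. For MCM5, GF 3 held 87.7 CPM and the remaining GF libraries 27.2 to 34.6 CPM. GF 3 also stood apart for CHAF1A, at 252 CPM with the rest of GF at 24.9 to 57.4 CPM. For POLA1, GF 4 held 50.5 CPM and the remaining GF libraries 13.8 to 18.1 CPM. GF 4 was low for FEN1, at 5.53 CPM with the rest of GF at 13.1 to 14.3 CPM. For RFC5, FO 4 held 15.7 CPM and the remaining FO libraries 12.8 to 13.1 CPM.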

How the results depend on the processing

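No member that passed the test, with all libraries or under an alternative, changed sign there. Across alternatives a member's value stayed on its side of the threshold in 566 of 592 values for GF against FO, 648 of 702 for GF against control testis and 622 of 702 for FO against control testis. The number of members that passed between GF and FO was 10 to 14 when 1 library was left out, and that of genes 2902 to 4842, against 4205 with all. For GF against control testis these were 4 to 18 members and 1141 to 4729 genes (4091 with all), and for FO against control testis 9 to 26 members and 796 to 3987 genes (2972 with all). Against control testis the lowest counts came without control 2, where the lone control library is assumed to vary like the grafts. Without FO 1 and GF 3, 2312 genes passed between GF and FO. With only the 2 groups in the fit, 7 members and 2201 genes passed for GF against control testis and 32 members and 6600 genes for FO against control testis. Without GF 3 and GF 4, 20 members and 5677 genes passed for GF against control testis, and 32 members and 6510 genes for FO against control testis. DESeq2 called 13 members and 5147 genes for GF against FO, 17 members and 5104 genes for GF against control testis, and 23 members and 3825 genes for FO against control testis. The causes were not tested.

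Same-numbered GF and FO libraries correlated in their deviations at 0.055, 0.218, 0.076 and 0.103, and differently numbered ones at -0.148 to 0.108. GF 2 and GF 3 correlated best with the FO library of their own number, GF 1 with FO 2 and GF 4 with FO 3. Since the same-numbered values were not all above 0.1, the numbers were not taken as pairs. These values do not settle whether they are. With the replicate block, 13, 12 and 22 members and 4335, 3282 and 3219 genes passed for GF against FO, GF against control testis and FO against control testis. CDT1 then passed for GF against control testis (-2.06, adjusted p = 0.0471).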
